A study of Saccharomyces cerevisiae with 34 samples.

Results

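The nuclear genes for mitochondrial ribosomal proteins were followed through 34 RNA-seq libraries of budding yeast. They were the genes whose standard name is MRPL, MRPS or RSM followed by a number, and 54 of the 6209 genes in the count tables met this rule. Of these, 34 are MRPL genes, which encode proteins of the large subunit, and 20 encode proteins of the small subunit (9 MRPS and 11 RSM genes). They lie on 14 chromosomes, none of them on chromosome I. Mitoribosomal genes that carry other names were kept as a separate list of 21 for comparison.

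The mitochondrial ribosome translates the few messages encoded by mitochondrial DNA, most of them for membrane subunits of the respiratory chain and ATP synthase. Nearly all of its proteins are encoded in the nucleus, made in the cytosol and imported. Many messages for mitochondrial proteins carry an element in the 3' untranslated region that is bound by the RNA-binding protein Puf3, which in yeast lowers their stability in glucose and favours their translation in respiring cells. The cytosolic ribosome and its biogenesis factors are controlled separately, through transcription factors such as Sfp1 and the TOR pathway.

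The libraries came from 17 strains, all Rad5+ in their labels, grown at 23 °C in YEP with lactic acid, a carbon source that has to be respired. Each culture was sampled after 2 h with 2% galactose (t2) and just before it was added (t0). No culture was sampled after 2 h without galactose, so galactose and 2 h of further growth cannot be told apart. The genotypes were *psh1Δ* (*psh1∆KAN*), which lacks the ubiquitin ligase that targets excess CENP-A Cse4, *htz1Δ* (*htz1∆HYG*), which lacks the histone variant H2A.Z, *pGAL-3Flag-CSE4*, the double mutant *psh1Δ pGAL-3Flag-CSE4*, then *pGAL-H3*, and wild type (WT). In the pGAL strains the *GAL* promoter drives the histone gene, so that galactose is at once the inducer and a change of carbon source for every strain, WT included. Each genotype had 1 strain in each of 3 batches, except *pGAL-3Flag-CSE4*, which had strains in batches 2 and 3, and a replicate is therefore a different strain in a different batch. Counts per library were 5258139 to 6836827 (median 5852828), and a member had between 23 and 2125 counts, with 53 of the 54 at 100 or more in every library. *PSH1* had 0 to 3 counts in the 12 libraries labelled as its deletion and 165 to 330 in the rest, and *HTZ1* had 0 to 2 counts in its 6 deletion libraries and 556 to 837 in the rest. In the batch 1 libraries of *psh1Δ* and *psh1Δ pGAL-3Flag-CSE4*, chromosome I stood 0.80 to 0.95 (median log2) above the other libraries of the same time, and no other chromosome stood apart by over 0.15 in any library. Since no member lies on chromosome I, these libraries were kept.

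Of the 4 motifs searched, the Puf3 element was the one most widely shared by the members. TGTANATA, read on the coding strand within 200 bases after the stop codon, was present in 53 of 54 members (98.1%), against 776 of 5652 other genes (13.7%) and 829 of all 5706 genes with a coding sequence (14.5%). All 34 large-subunit genes and 19 of 20 small-subunit genes had it. The exception was *RSM22* (chrXI:159456-161342, minus strand), which encodes a methyltransferase-like protein of the small subunit. The 66 elements lay 8 to 165 bases after the stop codon, with a median of 56.5, and 12 members had more than 1. The variable base was A in 29, T in 20, C in 16 and G in 1 of them. The elements of the members that the results below turn on are shown 5' to 3' from the RefSeq sequence of the R64 (sacCer3) genome, each with its neighbouring bases (for *MRPL33* the element nearer to the stop codon) and with the 8 bases of the element in capitals.
MRPL24, chrXIII:650857-650884, plus strand: ggttttccccTGTATATAaaaaagcata
MRPL24, chrXIII:650881-650908, plus strand: catatctgttTGTACATAtgtaggtatg
MRPL8, chrX:315715-315742, minus strand: tgtattccctTGTAAATAtatagatgac
MRPL33, chrXIII:842250-842277, plus strand: gacttatataTGTATATAgtattatttt
RSM27, chrVII:922548-922575, plus strand: actcatttcaTGTACATAcaaaatcaaa
MRPL11, chrIV:99268-99295, plus strand: tattcaatcaTGTACATAcatcatcaaa
MRPL17, chrXIV:171335-171362, minus strand: gtcaatcacaTGTAAATAtcattaaatg
MRPL37, chrII:741639-741666, plus strand: ttggtatcctTGTAAATAaatatgtgtg
MRPL4, chrXII:1015468-1015495, plus strand: ccctctctccTGTAAATAtatatatata
MRPS12, chrXIV:694270-694297, minus strand: tacaacctttTGTAAATAgcaatgacca

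Other nuclear genes for the mitochondrial translation machinery carried the element as well. It was found in 21 of 21 other mitoribosomal genes, in 13 of 13 genes for mitochondrial aminoacyl-tRNA synthetases and in 7 of 9 mitochondrial translation factors. It was found in 6 of 36 nuclear genes of oxidative phosphorylation (16.7%), 4 of 20 ribosome biogenesis genes (20.0%) and 5 of 132 cytosolic ribosomal protein genes (3.79%). The promoters of the members, taken as 250 bases before to 50 bases after the start codon and read on both strands, had none of the 3 motifs searched in such a share. AAAATTTT, a core of the rRNA-processing element of ribosome biogenesis genes, was in 3 members (5.56%) against 9.24% of all genes and in 20 of 20 biogenesis genes. CCAAT, the letters bound by the Hap complex, was in 22 members (40.7%) against 43.8% of all genes and in 31 of 36 oxidative phosphorylation genes (86.1%). TTACCCG, the core letters of the Reb1 site, was in 8 members (14.8%) against 7.34% of all genes. These are matches of letters and not tests of binding.

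**Figure D1:**
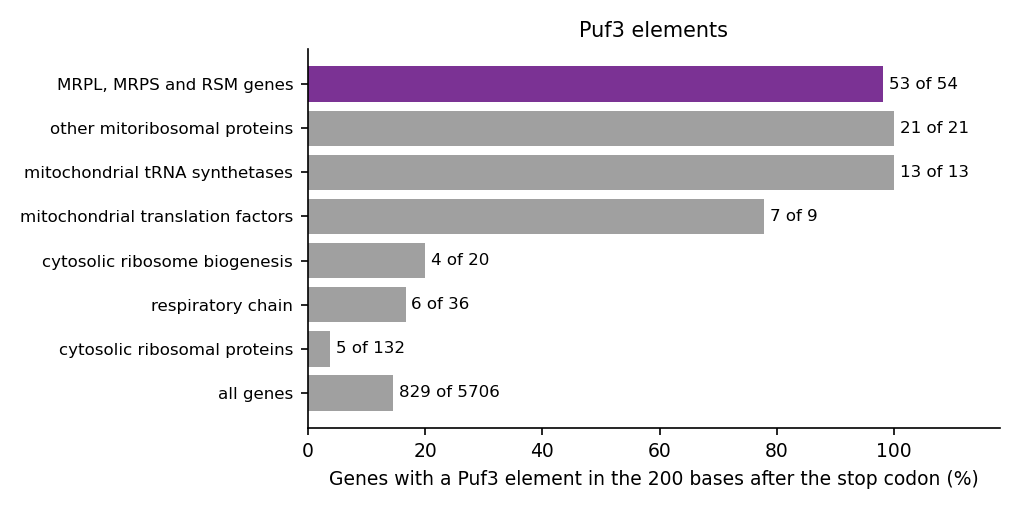
Share of genes (%) with the Puf3 element in the 200 bases after the stop codon, as 1 bar for the members (purple), each other gene list and all genes (grey), with the number of genes beside it. The members stand at 98.1%, against 14.5% of all genes.

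The members were expressed at moderate and similar levels. Per kilobase of coding length, and averaged over the 34 libraries, their median level was 188 CPM (counts scaled to a common library size, quartiles 168 to 229), against 44.9 CPM per kb for all genes. The large-subunit and small-subunit medians were 185 and 195 CPM per kb. On the same scale the other mitoribosomal genes had a median of 219, the mitochondrial tRNA synthetases 49.0, the oxidative phosphorylation genes 1322 and the cytosolic ribosomal protein genes 1566. The highest members were *MRPS12* at 529, *MRPS18* at 314 and *MRPL23* at 299.9 CPM per kb, all of which encode proteins with bacterial homologues. The lowest were *MRPL51* at 76.7, *RSM22* at 50.7 and *MRPL38* at 24.5 CPM per kb. *MRPL51* shares 323 bases with YPR099C on the opposite strand, and *MRPL19* shares 113 bases with YNL184C on its own strand. The strand setting of the counting is not given in the sources used here, so the levels of these members are uncertain.

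The summed level of the members was lower after galactose in every culture. The CPM of the 54 members summed to 6016, 5454 and 6221 in WT at t2 (batches 1, 2 and 3), against 7972, 7806 and 7228 in WT at t0. All 3 sums were lower at t2, and the t2 and t0 ranges did not overlap. As a share of the counts of a library, the members took 0.627%, 0.549% and 0.629% in WT at t2, against 0.845%, 0.805% and 0.765% at t0. CPM is a share of the messenger RNA counted, so that fewer copies of these messages and more of other messages cannot be told apart.

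**Figure D2:**
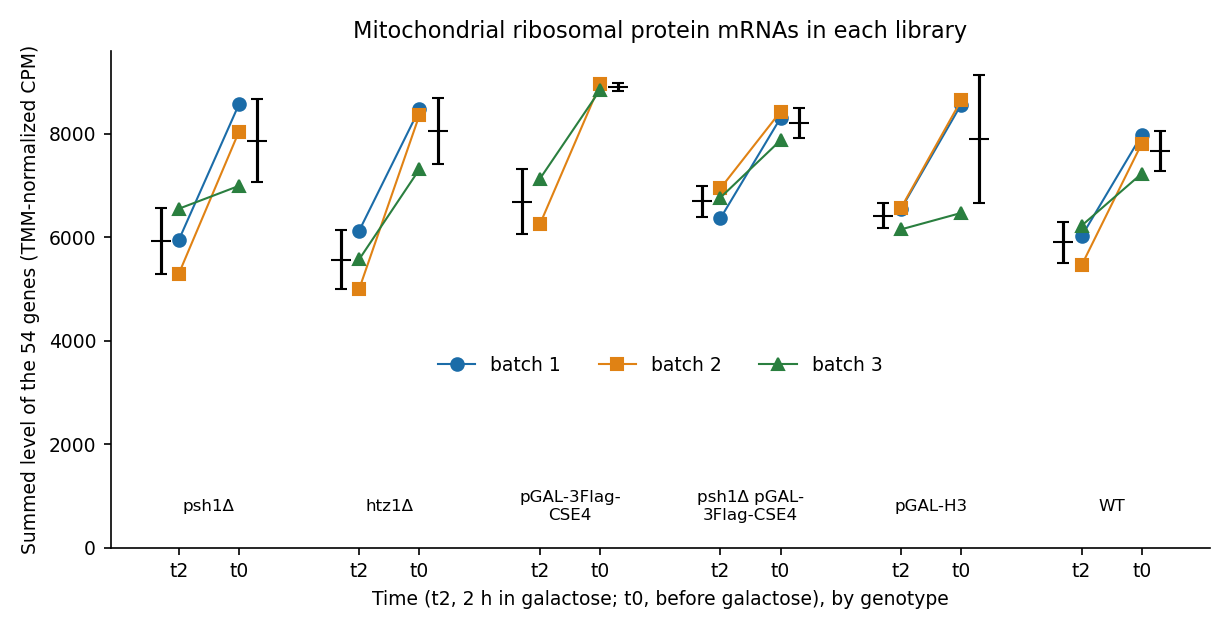
Summed level (TMM-normalized CPM) of the 54 members in each of the 34 libraries, by genotype and time, with symbols for the batch, lines joining the libraries of 1 culture, and black bars for the group mean ± SD. The t2 library lies below the t0 library of the same culture in all 17 cultures.

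The same held for the mutants. The summed level was 5925 ± 630 CPM at t2 and 7862 ± 800 at t0 in *psh1Δ* (SD, n = 3), and 5568 ± 562 at t2 and 8049 ± 641 at t0 in *htz1Δ* (SD, n = 3). In *psh1Δ pGAL-3Flag-CSE4* it was 6689 ± 296 CPM at t2 and 8200 ± 291 at t0, and in *pGAL-H3* 6418 ± 232 at t2 and 7891 ± 1233 at t0 (SD, n = 3 each). In *pGAL-3Flag-CSE4* it was 6685 ± 622 CPM at t2 and 8895 ± 76.6 at t0 (SD, n = 2). WT was at 5897 ± 397 CPM at t2 and 7669 ± 390 at t0 (SD, n = 3). The wide spread of *pGAL-H3* at t0 came from its batch 3 library, which at 6468 CPM was the lowest of the t0 libraries.

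Taken member by member within a culture, the change was small and shared. The median log2 change of the 54 members (t2 minus t0) was negative in all 17 cultures and ran from -0.73 to -0.07, with a median of -0.40. In 9 cultures all 54 members were lower at t2, and in the culture with the fewest, *pGAL-H3* of batch 3, 36 were. The culture medians of batches 1, 2 and 3 were -0.54, -0.62 and -0.09 in *psh1Δ*, -0.47, -0.73 and -0.40 in *htz1Δ*, and -0.39, -0.26 and -0.24 in *psh1Δ pGAL-3Flag-CSE4*. They were -0.40, -0.41 and -0.07 in *pGAL-H3* and -0.38, -0.50 and -0.19 in WT. In *pGAL-3Flag-CSE4*, the batch 2 and batch 3 cultures were at -0.55 and -0.32. The batch 3 culture had the smallest fall of its genotype in every case. The members also differed little from each other. The interquartile range of their changes within a culture was 0.13 to 0.31 (median 0.19). It was 0.34 to 0.61 (median 0.45) for the 5244 genes with a mean over 10 CPM.

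**Figure D3:**
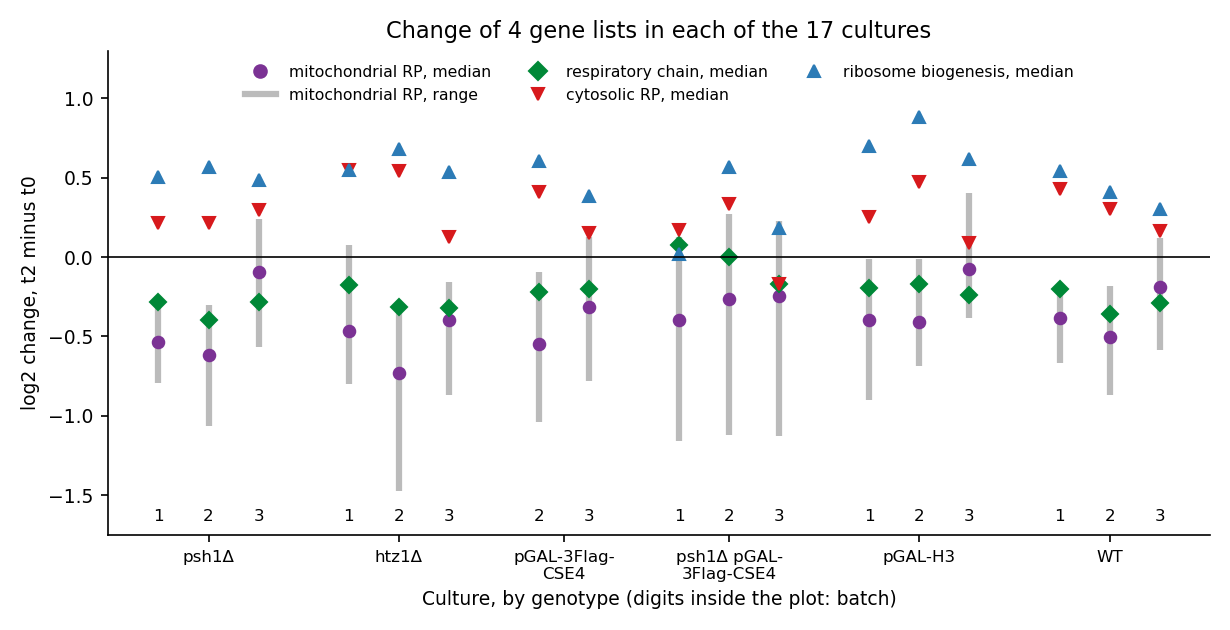
Log2 change (t2 minus t0) in each of the 17 cultures, by genotype and batch, with circles for the median of the members, grey bars for their full range and other symbols for the medians of the respiratory chain (oxidative phosphorylation), cytosolic ribosomal protein (RP) and ribosome biogenesis lists. All 17 medians of the members lie below 0, between -0.73 and -0.07, with the batch 3 culture nearest to 0 within each genotype. The cytosolic ribosomal protein median lies above 0 in all cultures but *psh1Δ pGAL-3Flag-CSE4* of batch 3, where it is -0.17.

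Across the 17 cultures, 22 members (40.7%) were lower at t2 in every one, against 320 of 5244 genes with a mean over 10 CPM (6.10%). The largest mean fall was that of *MRPL39*, a large-subunit protein with a bacterial homologue, at -0.72 on the log2 scale. The smallest were those of *RSM22* at -0.15 (lower in 14 of 17 cultures), *MRPL4* at -0.16 (13 of 17) and *MRPL3* at -0.23 (15 of 17). *MRPL4* had 146, 168 and 180.0 CPM in *psh1Δ pGAL-3Flag-CSE4* at t2 and 143, 139 and 165 CPM at t0, in the order of the batches. In WT it had 123, 104 and 131 CPM at t2 and 140.1, 134 and 134 CPM at t0. *MRPL4* was thus above its t0 level in each *psh1Δ pGAL-3Flag-CSE4* culture and below it in each WT culture, which is a description of single libraries with no test.

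The comparison of WT at t2 with WT at t0 asks what changes over 2 h with galactose in strains without the deletions and pGAL genes. A call needed both a change of at least 1.5-fold and, in edgeR's quasi-likelihood test, a p under 0.05 after Benjamini-Hochberg adjustment over all genes. All 54 members had a negative estimate, between -0.62 and -0.18 with a median of -0.38, against a median of -0.01 for all genes. The large-subunit and small-subunit medians were -0.37 and -0.40. Only 1 member passed both limits, 1.85% of the members against 1.87% of all genes called lower, and none was called higher (1.13% of all genes). Without the limit on fold, 22 members were lower at an adjusted p under 0.05 (40.7% of the members, against 3.74% of all genes), and 50 were lower at an unadjusted p under 0.05 (92.6%, against 13.7% of all genes). The change was thus common to the members and mostly smaller than the fold limit.

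The called member was *MRPL24* (YMR193W, chrXIII:650036-650812, plus strand), a large-subunit protein with a bacterial homologue, whose message has more than 1 Puf3 element (above). It had 97.0, 85.9 and 84.3 CPM in WT at t2, against 148, 135 and 126 CPM at t0. Every t2 value lay below every t0 value. The log2 change was -0.62 (SE 0.10), with an adjusted p of 0.0247 in edgeR's quasi-likelihood test with Benjamini-Hochberg adjustment, and the changes in batches 1, 2 and 3 were -0.61, -0.65 and -0.58. Over the 11 alternative settings its log2 change was -0.65 to -0.61 and its adjusted p 0.000176 to 0.317, and without replicate 1 or replicate 2 it was not called. Without replicate 1 or 2 no member was called, and without replicate 3 the number was 11. *RSM22*, the member with no element, had 80.8, 83.6 and 87.9 CPM in WT at t2 and 101, 94.9 and 95.1 CPM at t0. Its groups did not overlap either, but its log2 change of -0.22 (SE 0.08) did not pass edgeR's test after Benjamini-Hochberg adjustment (adjusted p = 0.147). *MRPL3*, with 2 elements, and *RSM19*, with 3, had mean log2 changes of -0.23 and -0.27 over the 17 cultures, against -0.51 for *MRPL24*. Whether the change goes with the number of elements was not tested.

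**Figure D4:**
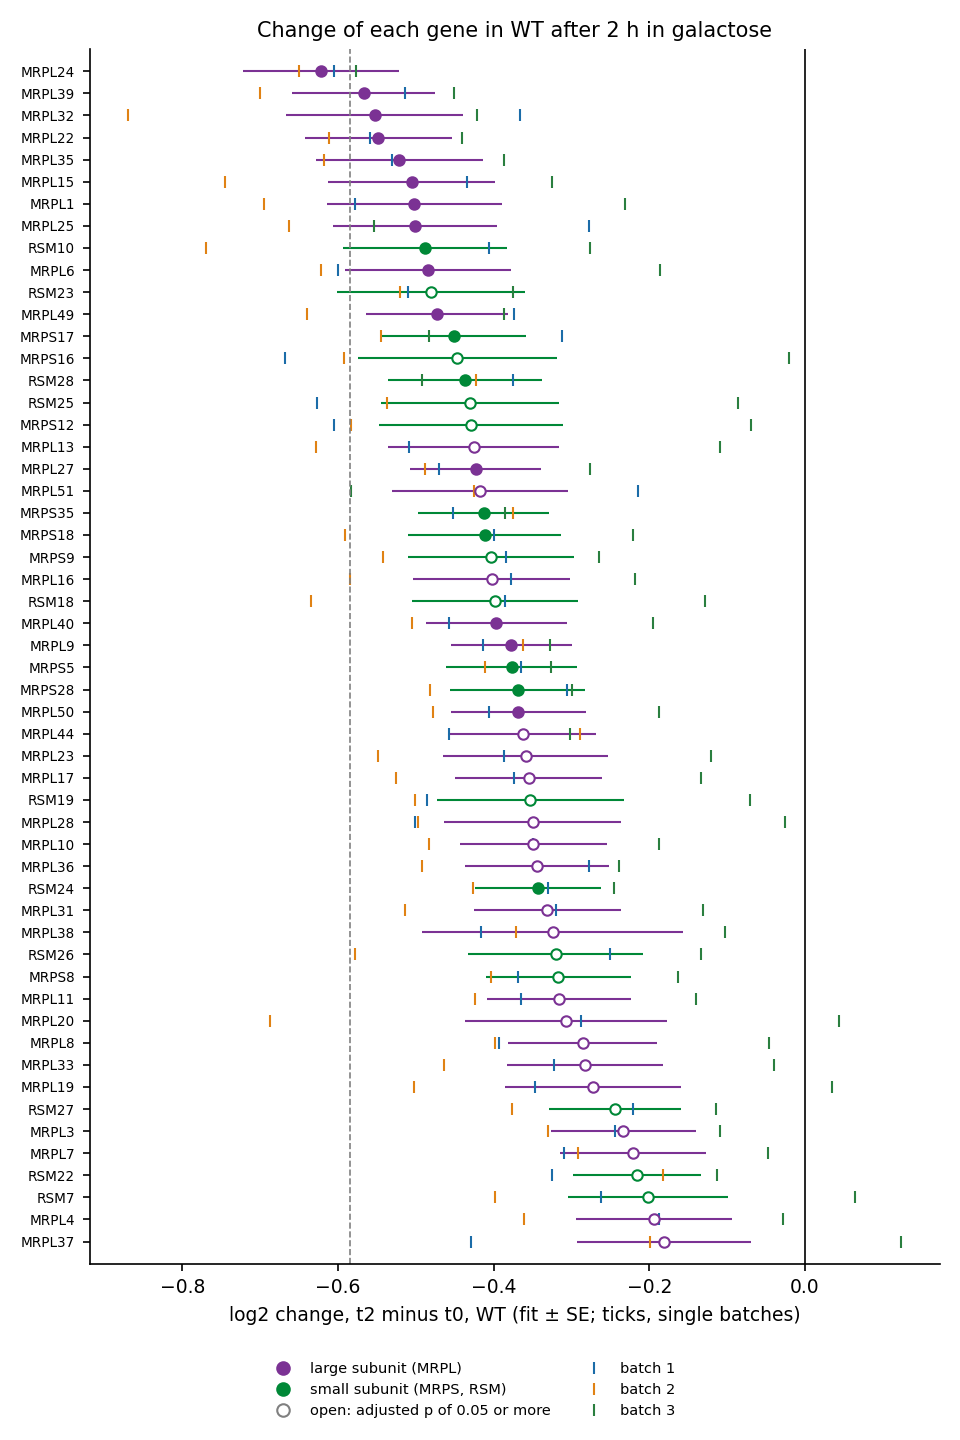
Log2 change in WT (t2 minus t0) of each of the 54 members on the horizontal axis, 1 row per gene, with the fitted value ± SE as a circle and line, purple for the large and green for the small subunit, and ticks for the changes in single batches. Filled circles have an adjusted p under 0.05, and the dashed line marks the limit on fold. All 54 circles lie below 0, from -0.62 for *MRPL24* to -0.18 for *MRPL37*, and the batch 3 ticks mostly lie nearest to 0.

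Other lists of the mitochondrial translation machinery also had mostly negative estimates in WT, of differing size. Negative estimates were given by 21 of 21 other mitoribosomal genes (median log2 change -0.38, none called, 21 at an unadjusted p under 0.05) and by 9 of 9 translation factors (median -0.44, none called, 8 at an unadjusted p under 0.05). Among the factors, *MEF1*, a mitochondrial elongation factor, had a log2 change of -0.58 (SE 0.09) and an adjusted p of 0.0247 in edgeR's quasi-likelihood test with Benjamini-Hochberg adjustment, just inside the fold limit. Of the 13 mitochondrial tRNA synthetases, 12 were negative (median -0.42) and *MSF1*, which charges phenylalanyl tRNA, was called lower at -0.65 (SE 0.12, adjusted p = 0.0289 in the same edgeR fit). *MSK1*, the lysyl enzyme, was the exception at 0.50 (SE 0.10, adjusted p = 0.0323 in the same edgeR fit). Of 15 translational activators, 14 were negative (median -0.30) and *CBP6*, needed for cytochrome b synthesis, was called lower at -0.65 (SE 0.13, adjusted p = 0.0334 in the same edgeR fit). The 5 genes of mitoribosome assembly ran from -0.30 (*MTG1*) to -0.09 (*MRM1*), and none was called.

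The nuclear oxidative phosphorylation genes were negative in 36 of 36 cases, with a median of -0.28, none called and 21 at an unadjusted p under 0.05. The genes of the cytosolic machinery had estimates of the other sign. Positive estimates were given by 20 of 20 ribosome biogenesis genes (median 0.38, none called, 20 at an unadjusted p under 0.05). Likewise, 130 of 132 cytosolic ribosomal protein genes were positive (median 0.29, none called, 46 at an unadjusted p under 0.05). Of all genes, 11.5% were higher and 13.7% lower at an unadjusted p under 0.05. *PUF3* itself had a log2 change of -0.20 (SE 0.09) and *HAP4*, the regulatory subunit of the Hap complex, one of -0.25 (SE 0.12), neither past edgeR's test after Benjamini-Hochberg adjustment (adjusted p = 0.191 and 0.230).

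Other genes with the element had a median nearer to 0. Of the genes outside the members with a mean over 10 CPM, the 750 with the element had a median log2 change of -0.12 in WT (quartiles -0.33 to 0.08, 66.7% negative). The 4368 without it had a median of 0.00 (49.9% negative). The members' median was -0.38. These values describe the lists, and the part of the element in the change was not tested.

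Over the 34 libraries the members moved together. The log2 CPM of all 1431 pairs of members correlated positively (r = 0.11 to 0.97, median 0.81), as a description over libraries that share times, batches and cultures. The correlation of a member with the mean of the other members was 0.58 to 0.98, with a median of 0.90. The members most like the rest were *MRPL10* (r = 0.981), *MRPS9* (0.965), *MRPL15* (0.963) and *MRPL49* (0.960). *MRPL10* had 179, 162 and 178 CPM in WT at t2 and 228, 226 and 203 CPM at t0. The least alike were *MRPL4* (r = 0.576), *MRPL8* (0.681), *MRPL11* (0.733) and *RSM19* (0.745), and *RSM22* was at 0.768. *MRPL8* and *MRPL11* are also among the members called in *htz1Δ* (below).

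On the same measure, the median correlation with the mean of the members was 0.88 for the other mitoribosomal genes, 0.84 for the mitochondrial tRNA synthetases and 0.82 for the translation factors. It was lower for the 15 translational activators (0.56) and for 5 genes of mitoribosome assembly (0.42). It was 0.50 for the oxidative phosphorylation genes, -0.60 for the cytosolic ribosomal protein genes (1 of 132 positive) and -0.66 for the biogenesis genes (0 of 20 positive). Single genes outside these lists were *HAP5* at 0.77, *PUF3* at 0.70, *HAP4* at 0.68, *HAP2* at 0.60, *HAP3* at 0.44 and *SFP1* at -0.28. The median over 5190 other genes was -0.00, and over those with the element it was 0.29 against -0.03 for those without.

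The comparison of *psh1Δ* with WT asks whether loss of the Cse4 ligase alone alters expression. At t0 no member was called in *psh1Δ*. Of all genes, 0.0161% were called lower, which was the deleted *PSH1* alone, and 0% called higher. None of the 54 was at an unadjusted p under 0.05 in edgeR's quasi-likelihood test, against 0.934% of all genes higher and 1.82% lower. DESeq2 and the likelihood ratio test called no member. The median log2 difference was 0.05 (range -0.14 to 0.22). The largest difference was that of *MRPL51*, a large-subunit gene, which had 39.5, 40.8 and 35.8 CPM in *psh1Δ* and 32.4, 32.1 and 35.7 CPM in WT. The *psh1Δ* values were the higher ones in each batch, but with a log2 difference of 0.22 (SE 0.10) they did not pass edgeR's test after Benjamini-Hochberg adjustment (adjusted p = 1.00).

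At t2 no member was called in *psh1Δ* either, by edgeR's quasi-likelihood test, DESeq2 or the likelihood ratio test. Of all genes, again 0.0161% were called lower by edgeR, which was *PSH1* alone, and 0% higher. No member was at an unadjusted p under 0.05 in edgeR's test, against 0.789% of all genes higher and 0.902% lower. The median log2 difference was 0.00 (range -0.26 to 0.21), with 27 members on either side of 0. *MRPL33* had 42.4, 35.8 and 47.5 CPM in *psh1Δ* and 50.3, 45.4 and 55.4 CPM in WT. It was lower in each batch, with a log2 difference of -0.26 (SE 0.14) that did not pass edgeR's test after Benjamini-Hochberg adjustment (adjusted p = 0.999).

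In *htz1Δ*, which asks what loss of H2A.Z does, the median of the members was near that of WT, and 4 members were called lower at t2. At t0 no member was called in *htz1Δ* by edgeR's quasi-likelihood test, DESeq2 or the likelihood ratio test, against 0.66% of all genes called higher and 2.32% called lower. The median log2 difference was 0.06 (range -0.54 to 0.47; -0.021 with scaling by library totals alone). At an unadjusted p under 0.05 were 10 members, 5 higher and 5 lower (9.26% each way), below the 10.4% and 12.4% of all genes. Without the limit on fold, 3 members were lower (*MRPL8*, *MRPL11* and *MRPL33*) and 1 was higher, against 3.41% and 1.64% of all genes. At t2, 4 members were called lower, 7.41% of the members against 3.93% of all genes. None was called higher, against 2.61% of all genes, and the median log2 difference was -0.06 (range -0.83 to 0.27). With replicates left out in turn the number called lower was 2 to 4, and 14 members, all of them lower (25.9%, against 15.8% of all genes), were at an unadjusted p under 0.05. None was higher at that limit, against 14.9% of all genes. Without the fold limit 6 members were lower (11.1%, against 8.49% of all genes) and none higher (7.36% of all genes). The added 2 were *MRPL37* at -0.46 (adjusted p = 0.0192) and *MRPL23* at -0.41 (adjusted p = 0.0335, both by edgeR's quasi-likelihood test after Benjamini-Hochberg adjustment).

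The largest difference was that of *MRPL8* (YJL063C, chrX:315759-316475, minus strand), a large-subunit protein with a bacterial homologue. It had 93.2, 75.5 and 79.0 CPM in *htz1Δ* at t2, against 141, 137 and 162 CPM in WT at t2. At t0 it had 122, 135 and 108 CPM in *htz1Δ*, against 185, 181 and 167 CPM in WT. The *htz1Δ* and WT ranges did not overlap at either time. The log2 difference was -0.83 (SE 0.11, adjusted p = 0.000910) at t2 and -0.54 (SE 0.10, adjusted p = 0.0337) at t0 in edgeR's quasi-likelihood test with Benjamini-Hochberg adjustment. At t2 *MRPL8* was called under all 11 alternative settings, of which the one with no fold minimum cannot lose a call.

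*MRPL33* (YMR286W, chrXIII:841942-842202, plus strand) is a short large-subunit protein with a bacterial homologue. It had 31.9, 25.9 and 32.6 CPM in *htz1Δ* at t2, against 50.3, 45.4 and 55.4 CPM in WT at t2. At t0 it had 47.0, 43.2 and 47.7 CPM in *htz1Δ*, against 63.0, 62.8 and 57.0 CPM in WT. Here too the ranges did not overlap at either time, and the log2 difference was -0.74 (SE 0.12, adjusted p = 0.00278) at t2 and -0.40 (adjusted p = 0.0496) at t0 in edgeR's quasi-likelihood test with Benjamini-Hochberg adjustment. At t2 it was called under all 11 alternative settings.

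*RSM27* (YGR215W, chrVII:922175-922507, plus strand), the small-subunit gene among the 4, had 49.0, 43.4 and 40.1 CPM in *htz1Δ* at t2, against 67.9, 65.3 and 74.3 CPM in WT at t2. At t0 it had 67.1, 65.2 and 60.0 CPM in *htz1Δ*, against 79.2, 84.9 and 80.4 CPM in WT. Each *htz1Δ* value was below each WT value of its time. The log2 difference was -0.65 (SE 0.11, adjusted p = 0.00278) at t2 and -0.34 (adjusted p = 0.0619) at t0 in edgeR's quasi-likelihood test with Benjamini-Hochberg adjustment. At t2 it was called under 10 of 11 alternative settings, but not without replicate 3.

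*MRPL11* (YDL202W, chrIV:98475-99224, plus strand), the last of the 4, had 94.6, 70.4 and 82.7 CPM in *htz1Δ* at t2, against 126, 114 and 136 CPM in WT at t2. At t0 it had 119, 113 and 106 CPM in *htz1Δ*, against 163, 153 and 149.9 CPM in WT. Both pairs of ranges were apart. The log2 difference was -0.61 (SE 0.12, adjusted p = 0.00598) at t2 and -0.46 (adjusted p = 0.0337) at t0 in edgeR's quasi-likelihood test with Benjamini-Hochberg adjustment. At t2 it was called under 9 of 11 alternative settings, but not without replicate 2 or 3, where the adjusted p was at most 0.0784.

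**Figure D5:**
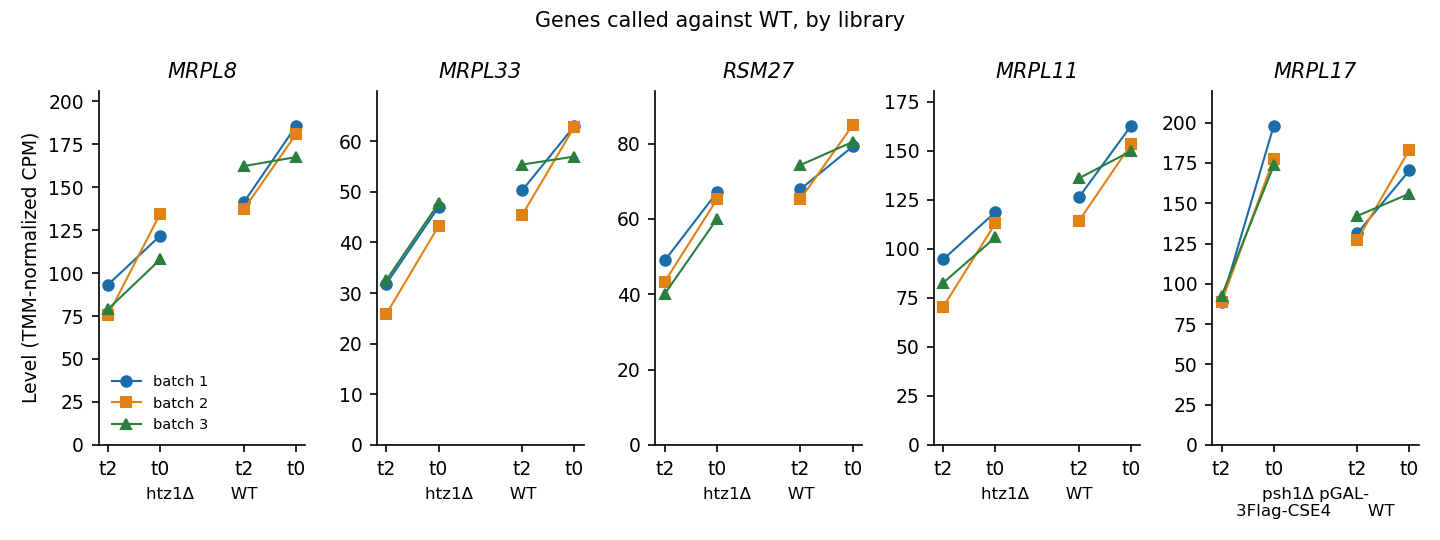
Level (TMM-normalized CPM) by library of the 5 members called against WT, by strain and time, with a symbol for each batch and lines joining the libraries of 1 culture. *MRPL8*, *MRPL33*, *RSM27* and *MRPL11* are lower in *htz1Δ* than in WT at both times, and *MRPL17* is at 88.5 to 92.6 CPM in *psh1Δ pGAL-3Flag-CSE4* at t2, against 127 to 142 CPM in WT at t2.

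The other lists in *htz1Δ* at t2 had few calls. The other mitoribosomal genes had a median log2 difference of -0.07 and none was called, while 35 of 36 oxidative phosphorylation genes were positive with a median of 0.15 and none called. *AIM23*, a mitochondrial translation initiation factor, was called lower at -0.65 (SE 0.14, adjusted p = 0.00974) in edgeR's quasi-likelihood test with Benjamini-Hochberg adjustment. *ISM1*, the mitochondrial isoleucyl-tRNA synthetase, was called lower at t2 (-0.64, adjusted p = 0.00190) and at t0 (-0.70, adjusted p = 0.0113) in the same test.

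The change from t0 to t2 in each strain was then set against that in WT. This asks whether the change differs when a histone is overexpressed or H2A.Z is missing. These 4 comparisons use the same 6 WT libraries, so their values are not independent. For *htz1Δ*, 53 of 54 members had a negative difference of changes from WT (median -0.17 on the log2 scale, against -0.02 for all genes). No member and no gene at all was called (0% in either direction) by edgeR's quasi-likelihood test, 5 members were lower at an unadjusted p under 0.05 (9.26%, against 2.24% of all genes), and DESeq2 and the likelihood ratio test called no member. The largest estimate was that of *MRPL38*, a large-subunit protein with a bacterial homologue and the lowest level of all members. It had 7.67, 6.08 and 4.89 CPM in *htz1Δ* at t2 and 12.8, 16.2 and 9.32 CPM at t0, against 10.5, 8.97 and 10.2 CPM in WT at t2 and 14.2, 11.8 and 11.0 CPM at t0. Its difference of changes was -0.73 (SE 0.31, adjusted p = 0.987 in edgeR's test with Benjamini-Hochberg adjustment).

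In *psh1Δ pGAL-3Flag-CSE4*, where galactose induces Cse4 in cells that cannot degrade it efficiently, the members' changes were the most dispersed of all genotypes, with interquartile ranges of 0.28 to 0.31 within a culture. Set against WT, their median difference of changes was 0.08 (range -0.70 to 0.39), with 24 negative and 30 positive. With scaling by library totals alone the median was -0.10, where that of all genes was -0.19. By edgeR's quasi-likelihood test, 1 member was called lower (1.85% of the members, against 0.177% of all genes) and none higher (0.161% of all genes), with 7 at an unadjusted p under 0.05. Of these, 4 were higher (7.41%, against 7.36% of all genes) and 3 lower (5.56%, against 8.78%), which is near or below the background.

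The called member was *MRPL17* (YNL252C, chrXIV:171441-172286, minus strand), a large-subunit protein. It had 88.5, 88.7 and 92.6 CPM in *psh1Δ pGAL-3Flag-CSE4* at t2 and 198, 178 and 173 CPM at t0, against 131, 127 and 142 CPM in WT at t2 and 170.4, 183 and 156 CPM at t0. At t2 the *psh1Δ pGAL-3Flag-CSE4* values were below those of WT in all batches, and at t0 the ranges overlapped. In *pGAL-3Flag-CSE4* it had 126 and 155 CPM at t2 and 206 and 198 CPM at t0, and in *psh1Δ* 120.3, 113 and 139 CPM at t2 and 192, 190.1 and 149 CPM at t0. The difference of changes was -0.70 (SE 0.12, adjusted p = 0.0286 in edgeR's quasi-likelihood test with Benjamini-Hochberg adjustment), and the differences in batches 1, 2 and 3 were -0.78, -0.47 and -0.77. Over the 12 alternatives it ran from -0.88 to -0.64 and the adjusted p from 0.000476 to 0.538. *MRPL17* was called in 8 of the 12, but not without any 1 of the 3 replicates and not with the culture as a replicate block, under which no member was called. *MRPL17* is on a list that the study drew up from these libraries, so its direction here is no independent evidence. The next member was *RSM27* with a difference of changes of -0.56 (SE 0.15), which did not pass edgeR's test after Benjamini-Hochberg adjustment (adjusted p = 0.0953). It had 48.3, 61.3 and 48.1 CPM in *psh1Δ pGAL-3Flag-CSE4* at t2 and 81.7, 91.4 and 96.0 CPM at t0, and its WT values are given above.

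Overexpression of Cse4 or of H3 in cells with Psh1 gave no call among the members. In *pGAL-3Flag-CSE4* the median difference of changes from WT was -0.03 and 1 member was at an unadjusted p under 0.05, against 0.0161% of all genes called higher and 0% lower in edgeR's quasi-likelihood test. This genotype lacks batch 1 while the WT libraries are of all 3 batches, so its fitted values mix genotype with batch. Against WT of the same batch, the medians were -0.01 in batch 2 and -0.09 in batch 3. The largest estimate was that of *MRPL37*, a large-subunit protein specific to mitochondria, with 43.2 and 57.5 CPM at t2 and 73.6 and 76.0 CPM at t0. In WT it had 50.7, 53.0 and 60.1 CPM at t2 and 68.5, 60.9 and 55.1 CPM at t0, and the difference of changes of -0.39 (SE 0.20) did not pass edgeR's test with Benjamini-Hochberg adjustment (adjusted p = 0.999). In *pGAL-H3* the median was 0.07, with 45 of 54 positive. None was at an unadjusted p under 0.05, against 4.28% of all genes higher and 1.61% lower. Again 0.0161% of all genes were called higher, which was the induced H3 gene *HHT1* alone, and 0% lower. The largest estimate in *pGAL-H3* was -0.31 (SE 0.28, adjusted p = 0.991 in edgeR's test with Benjamini-Hochberg adjustment) for *MRPL38*. It had 8.50, 9.53 and 7.96 CPM in *pGAL-H3* at t2 and 16.3, 14.6 and 9.25 CPM at t0. DESeq2 and the likelihood ratio test called no member in either strain.

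The batches differed in the level that the members had before galactose. With genotype as a term and all t0 libraries in the fit, 53 of 54 members were lower in batch 3 than in batches 1 and 2, with a median log2 difference of -0.20 (range -0.36 to 0.01), against -0.01 for all genes. None passed the fold limit in edgeR's quasi-likelihood test, DESeq2 or the likelihood ratio test, against 3.12% of all genes called lower and 2.24% called higher. At an unadjusted p under 0.05, 43 were lower (79.6%, against 24.2% of all genes) and none higher (21.4% of all genes). At any fold, 40 were lower at an adjusted p under 0.05 (74.1% of the members, against 19.7% of all genes) and none higher (18.1% of all genes). Within genotypes the median difference was -0.42 in *pGAL-H3* (54 of 54 lower), -0.27 in *psh1Δ* (51 lower), -0.18 in *htz1Δ* (50 lower), -0.14 in WT (49 lower) and -0.09 in *psh1Δ pGAL-3Flag-CSE4* (39 lower). In *pGAL-3Flag-CSE4*, with no strain in batch 1, batch 3 differed from batch 2 by -0.00 (29 lower). Each batch also holds its own strains, so batch and strain cannot be told apart. Cultures of the same batch are not independent batches, so p-values of the batch comparisons at t0 and at t2 measure the spread between cultures only.

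Among single members, *MRPL38* had the largest difference at t0. It ran from 9.25 to 13.3 CPM in the 6 batch 3 libraries (median 10.2) and from 9.57 to 16.3 CPM in the 11 libraries of batches 1 and 2 (median 12.8). *MRPL39* ran from 56.1 to 85.2 CPM in batch 3 (median 61.5) and from 69.9 to 87.7 CPM in batches 1 and 2 (median 77.7). Both pairs of ranges overlapped, and the log2 differences were -0.36 (SE 0.12, adjusted p = 0.0281) for *MRPL38* and -0.33 (SE 0.06, adjusted p = 0.000576) for *MRPL39* in edgeR's quasi-likelihood test with Benjamini-Hochberg adjustment. *MRPL27*, nearest to the median, was at -0.20 (SE 0.06, adjusted p = 0.00991 in the same test), with medians of 72.8 CPM in batch 3 and 86.2 CPM in batches 1 and 2. At the other end, *MRPL44* and *MRPL4* differed by -0.00 and 0.01 and did not pass the test. *MRPL4* had a median of 149 CPM in batch 3 and 143 CPM in batches 1 and 2.

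The other mitoribosomal genes had the same sign at t0, with 21 of 21 lower in batch 3 and a median of -0.18. The oxidative phosphorylation genes had a median of -0.00. Of the cytosolic ribosomal protein genes, 131 of 132 were higher in batch 3, with a median of 0.38 and 3 called.

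At t2 the median difference of the members was 0.06, with 43 of 54 higher in batch 3. At an unadjusted p under 0.05 in edgeR's quasi-likelihood test, 7 were higher (13.0%, against 9.55% of all genes) and none lower (9.9% of all genes). The sign was not the same in every genotype, a difference that was not tested. The median was 0.24 in *psh1Δ* (3 of 54 lower), 0.12 in WT (9 lower), 0.02 in *psh1Δ pGAL-3Flag-CSE4* (20 lower) and 0.01 in *htz1Δ* (23 lower), but -0.08 in *pGAL-H3* (44 lower). In *pGAL-3Flag-CSE4*, batch 3 differed from batch 2 by 0.20 (2 lower). None was called by edgeR, DESeq2 or the likelihood ratio test, against 0.113% of all genes called higher and 0.0966% called lower. At any fold 1 was higher at an adjusted p under 0.05 (1.85%, against 0.805% of all genes), *MRPL37*, and none lower (0.483% of all genes). It ran from 43.4 to 69.0 CPM in the 6 batch 3 libraries (median 60.6) and from 34.9 to 55.2 CPM in the 11 libraries of batches 1 and 2 (median 48.3), and its log2 difference was 0.31 (SE 0.06, adjusted p = 0.0203 in edgeR's quasi-likelihood test after Benjamini-Hochberg adjustment).

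The change from t0 to t2 was less negative in batch 3. The difference of changes was positive for 53 of 54 members, with a median of 0.27, against -0.01 for all genes. It is the batch difference at t2 (median 0.06) less that at t0 (median -0.20), so most of it restates the lower t0 level of batch 3. None passed the fold limit by edgeR, DESeq2 or the likelihood ratio test, against 3.21% of all genes called higher and 2.46% called lower. At an unadjusted p under 0.05, 40 were higher (74.1%, against 17.6% of all genes). At any fold 34 were higher at an adjusted p under 0.05 (63.0% of the members, against 12.3% of all genes). This fit had no term for the culture, so its p-values measure the spread between libraries and leave out the pairing of t0 and t2. The largest was *MRPL37* at 0.45 (SE 0.09, adjusted p = 0.000799 in edgeR's quasi-likelihood test with Benjamini-Hochberg adjustment). In *psh1Δ*, for example, it had 69.0 CPM at t2 and 69.5 CPM at t0 in batch 3, against 47.0 at t2 and 74.4 at t0 in batch 1. The cytosolic ribosomal protein genes had a median of -0.25 in the same comparison, with 1 called.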

How the data were processed

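Reads of 50 bases had been aligned to sacCer3 with TopHat 2.1.0 and counted on genes with HTSeq 0.6.1, as the authors state, and genes with low counts had been removed and groups compared with edgeR 3.12.0. The counts per gene and library that the authors deposited in 8 tables were read from 64 columns, of which 30 repeated a library with identical values. The tables also hold CPM normalized by the authors, the log2 fold change and p-value of each of their comparisons, and a score marking the genes they called, none of which was used. Group, time and batch came from the labels. Members and gene lists were chosen with earlier results of these data known.

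Counts were fitted with edgeR 4.0.16 in R 4.3.3 on all 6209 genes (TMM, glmQLFit and glmQLFTest) in the libraries of each comparison. The comparisons of genotypes and times had no batch term. Those of batches had terms for genotype and batch, each by time where changes were compared. A call needed a change of at least 1.5-fold and p under 0.05 after Benjamini-Hochberg adjustment. CPM values are TMM-scaled, and log2 values of single cultures used a pseudocount of 0.5 CPM. Libraries held 5258139 to 6836827 counts, and 53 members had at least 100 in each. Sequences were read from the RefSeq copy of R64; 5714 genes matched by systematic name, 99.8% of them with the same coordinates, and 54 of 54 members. Members named are those called (the 3 largest each way, or all of 5 or fewer), the largest change where none was called, the 3 highest and 3 lowest levels, *MRPL17*, the extremes and centre of batch 3 at t0, and the 4 most and 4 least like the rest. *MRPL39* and *MRPL3* for their mean change, *RSM22* for its lack of an element, *MRPL3* and *RSM19* for their number of elements, *MRPL37* and *MRPL23* in *htz1Δ* and *RSM27* in *psh1Δ pGAL-3Flag-CSE4* were named after their values were seen.

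The replicate number is the batch in the labels, so it pairs libraries. Deviations from group means correlated at -0.0234 to 0.553 (median 0.209) in 17 pairs of 1 culture, 10 of them over 0.1, and at -0.488 to 0.846 (median 0.160) in 177 pairs of 1 batch. The alternatives were DESeq2 1.42.0, its size factors in edgeR, library totals only, the likelihood ratio test, a filter of 10 counts in 3 or more libraries, no fold minimum, all 34 libraries in 1 fit, a replicate block by batch or by culture, and each replicate left out. The methods were tested on simulated data. Mitochondrially encoded genes were not analysed here.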

Additional observations from a re-analysis of the deposited data

Results flagged for a closer look

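*MRPL17* differed between genotypes in its change from t0 to t2. Its change in *psh1Δ pGAL-3Flag-CSE4* minus its change in WT was -0.70 on the log2 scale, with the interaction tested across all genes, and the call was lost without any 1 of the 3 replicates.

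The change from t0 to t2 also differed between batches. It was less negative in batch 3 than in batches 1 and 2 for 34 members at an adjusted p under 0.05 in edgeR's quasi-likelihood test with Benjamini-Hochberg adjustment, and *MRPL37* had the largest difference at 0.45 on the log2 scale. Most of the members' difference lies in their lower level in batch 3 at t0 (median log2 difference -0.20, against 0.06 at t2). The fit had no term for the culture, so its p-values treat the t0 and t2 libraries of 1 culture as independent. They measure the spread between libraries and not that between batches. The batches hold different strains, and what sets batch 3 apart was not tested.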

How the results depend on the processing

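Of 268 alternative values of counts of calls and of medians, 249 stayed within the limits set for a change and 19 did not. The setting with no fold-change minimum uses the main fit, so it leaves every median and every sign unchanged and loses no call. With no fold-change minimum, the calls were 22 in WT at t2 against t0, 4 in *htz1Δ* at t0, 40 for batch 3 at t0, 1 for batch 3 at t2 and 34 for the change of batch 3. With library totals only, calls were 2 in WT, 1 in *htz1Δ* at t0 and 2 for the change of *psh1Δ pGAL-3Flag-CSE4*, and medians were -0.021 in *htz1Δ* at t0, -0.20 in *htz1Δ* at t2 and -0.10 for the change of *psh1Δ pGAL-3Flag-CSE4*. The first and last of these medians changed sign, as did those of *psh1Δ*, which are near 0, at t0 without replicate 1 and at t2 under most alternatives (4 of 11 kept the sign, range -0.03 to 0.03). With library totals only, the median of all genes was -0.08 in *htz1Δ* at t0, -0.15 in *htz1Δ* at t2 and -0.19 for that change. With replicates left out in turn, calls ran from 0 to 11 in WT and from 2 to 4 in *htz1Δ* at t2, and were 0 for the change of *psh1Δ pGAL-3Flag-CSE4*. With the culture as a replicate block, no member was called there, and the batch or culture block moved no other count of calls by over 1.5 times. Of 167 alternative values of 15 tests of named members, 153 were unchanged, 9 were past the threshold no longer, 5 were newly past it and none turned its direction. The cause of these differences was not tested. With 3 strains per group, and 2 in *pGAL-3Flag-CSE4*, the number of strains limits the precision of each member's change.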
